A study of Mus musculus with 6 samples.

Results

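The E2F family and the pocket proteins were followed in cardiomyocytes (CMs) of the mouse left ventricle as 10 genes, taken by symbol from the gene tables of the count files: E2f1, E2f2, E2f3, E2f4, E2f5, E2f7, E2f8, Rb1, Rbl1 and Rbl2. Each symbol stood for 1 gene of the 27998 in the tables, of which 18117 had a transcript in CMs. The CMs came from C57BL/6J mice at embryonic day 16.5 (E16.5), postnatal day 1 (P1) and postnatal day 5 (P5). Left ventricles were dissociated, and the cells were fixed in methanol, stained with an antibody to the CM protein MYH1 and with the DNA dye Hoechst, and sorted into a diploid (2n) and a tetraploid (4n) fraction. No genotype or treatment differed between the fractions, and each fraction held cells of several littermates and of 3 litters per age. Every fraction of every age was measured by droplet-based single cell RNA sequencing (scRNA-seq) as 1 library, named by age and ploidy (E16.5-2n to P5-4n, 6 in all). Where 6 values are given in library order, the ages follow in time and the 2n library of an age precedes its 4n library. A 4n content holds both CMs that have copied their DNA before division and CMs that stay tetraploid, with 1 or 2 nuclei, and the sort cannot tell these apart.

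E2F proteins are transcription factors that bind the promoters of genes needed for DNA replication and mitosis. In resting cells they are held, or joined as repressors, by the pocket proteins Rb1, Rbl1 and Rbl2. Cyclin D and cyclin E kinases phosphorylate the pocket proteins, which frees the activating E2Fs and lets the cell enter S phase. E2f1, E2f2 and E2f3 are counted as activators, E2f4 and E2f5 as repressors that act with Rbl1 and Rbl2, and E2f7 and E2f8 as atypical repressors that work without pocket proteins late in the cycle. E2f1, E2f7, E2f8 and Rbl1 are themselves E2F targets. Mouse CMs leave the cell cycle around birth, and many then copy their DNA once more and become binucleated.

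A unique molecular identifier (UMI) marks 1 captured RNA molecule. Levels are UMIs of a gene per 1000000 UMIs of the CMs of a library (CPM), with exact 95% Poisson intervals. With 1 library per condition there is no replicate error within a condition, and these intervals cover counting error only. Ploidy and age were tested over the libraries in an additive fit, given after the single comparisons. The 6 libraries held 31156 cells, of which 30733 had at least 1 UMI of each of Tnni3, Tnnt2, Tnnc1 and Actc1 and were taken as CMs. There were 3654 to 7340 CMs per library, with 13070343 to 19665830 UMIs in all and a median of 1831 (P1-2n) to 4658 (P5-4n) UMIs per CM. Markers of fibroblasts, endothelial, immune, mural and epicardial cells (17 genes, 16 of 17 seen in E16.5-2n, where Ptprc was at 0, and 17 of 17 in the other libraries) summed to 107 to 236 CPM in the 2n libraries and 312 to 758 CPM in the 4n libraries. Erythroid markers (3 genes) summed to 534 to 3540 CPM. Between 17 and 62 cell barcodes were shared by any pair of libraries. As a check of the sorted ploidy, 12 mitotic genes of the G2/M list summed to 479, 2167, 77.3, 313, 205 and 1028 CPM in library order and were higher in the 4n library at each age.

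The 10 genes together had 6908 UMIs, or 69.0 CPM over all CMs. All 10 were seen in every library, with 10 UMIs (E2f2 in P1-2n) to 576 UMIs (E2f1 in P5-2n), and all 10 passed the minimum of 20 UMIs over a pair of libraries in every comparison. No CM held more than 4 UMIs of any of them. The assay reads the 3′ ends of transcripts, so that values are compared between libraries and not between genes.

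Promoter sequences were available for 7 of the 10 genes (RefSeq start sites on GRCm38.p6, 250 bases before and 50 after the start, 9 windows in all). They were searched on both strands for the E2F element, written as TTTCCCGC, TTTCGCGC, TTTGCCGC or TTTGGCGC, and for TTTGAA, the cell cycle genes homology region (CHR) bound by the complex of MuvB with Rbl1, Rbl2 or Mybl2. Shown are the promoters of Rbl1, E2f7 and E2f8, the genes whose levels followed each other most closely over the libraries, each read along its own gene. Capitals mark the E2F element in Rbl1 and E2f7 and the CHR in E2f8.
Rbl1 (chr2:157204485-157204784, minus strand): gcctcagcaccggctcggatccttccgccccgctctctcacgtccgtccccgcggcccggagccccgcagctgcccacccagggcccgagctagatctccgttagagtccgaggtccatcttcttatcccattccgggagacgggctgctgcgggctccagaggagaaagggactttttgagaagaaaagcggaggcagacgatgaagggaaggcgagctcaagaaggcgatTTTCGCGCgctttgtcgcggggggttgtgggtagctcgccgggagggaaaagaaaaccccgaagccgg
E2f7 (chr10:110745189-110745488, plus strand): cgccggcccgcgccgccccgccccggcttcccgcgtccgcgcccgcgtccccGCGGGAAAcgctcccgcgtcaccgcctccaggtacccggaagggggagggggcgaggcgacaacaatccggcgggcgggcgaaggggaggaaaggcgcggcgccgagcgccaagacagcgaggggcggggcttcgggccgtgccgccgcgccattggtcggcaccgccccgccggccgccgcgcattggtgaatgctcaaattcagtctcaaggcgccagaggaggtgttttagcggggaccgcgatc
E2f8 (chr7:48881547-48881846, minus strand): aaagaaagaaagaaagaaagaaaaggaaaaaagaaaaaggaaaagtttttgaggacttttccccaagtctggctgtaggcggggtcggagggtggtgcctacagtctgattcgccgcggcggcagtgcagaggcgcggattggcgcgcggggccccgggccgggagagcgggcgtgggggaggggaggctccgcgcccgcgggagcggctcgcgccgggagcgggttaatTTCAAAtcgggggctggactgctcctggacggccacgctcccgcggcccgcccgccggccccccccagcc

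The element in Rbl1 began 18 bases before the start site and read TTTCGCGC along the gene. That in E2f7 began 198 bases before it and stood in reverse, as GCGGGAAA. In E2f8 the CHR began 20 bases before the start site, also in reverse. Elsewhere, an E2F element lay 11 bases before an E2f3 start site, beside a CHR 23 bases before it, and 39 bases after one E2f2 start site. The other E2f2 start site had a CHR 31 bases before it, and Rbl2 had one at 201 bases. In all, 4 of the 9 windows held an E2F element and 4 held a CHR, while 2.26% and 17.9% of the 32851 promoter windows of the reference did. E2f1 held neither set of letters in its window, which says nothing of other E2F sites. A match of letters is a description and no proof of binding.

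E2f1 (ENSMUSG00000027490, chr2:154559407-154569892 of GRCm38, minus strand), the activator best known for opening S phase, was lowest at P1 and highest in P5-2n CMs. It stood at 20.3 CPM in diploid (297 UMIs) and 11.6 in tetraploid CMs (152) before birth, then at 7.36 (121) and 6.36 (125) on P1, and at 32.1 (576) and 14.8 (273) on P5. Both P1 libraries lay under all others, and the 2n library lay above the 4n library of its age at E16.5 and P5. Of the neighbours in this order, the intervals of P5-4n (13.1 to 16.7) and E16.5-4n (9.85 to 13.6) overlapped, and so did those of P1-2n (6.11 to 8.79) and P1-4n (5.29 to 7.57). P1-2n against E16.5-2n gave a log2 ratio of −1.46 (−1.78 to −1.16), and P5-2n against P1-2n one of 2.13 (1.84 to 2.42), or 4.37-fold. In 4n CMs the same steps were −0.87 (−1.22 to −0.52) and 1.22 (0.91 to 1.54). The 4n library was lower than the 2n library by −0.80 (−1.10 to −0.52) at E16.5 and −1.11 (−1.33 to −0.90) at P5, whereas at P1 the value was −0.21 with an interval across 0 (−0.58 to 0.16).

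**Figure D1:**
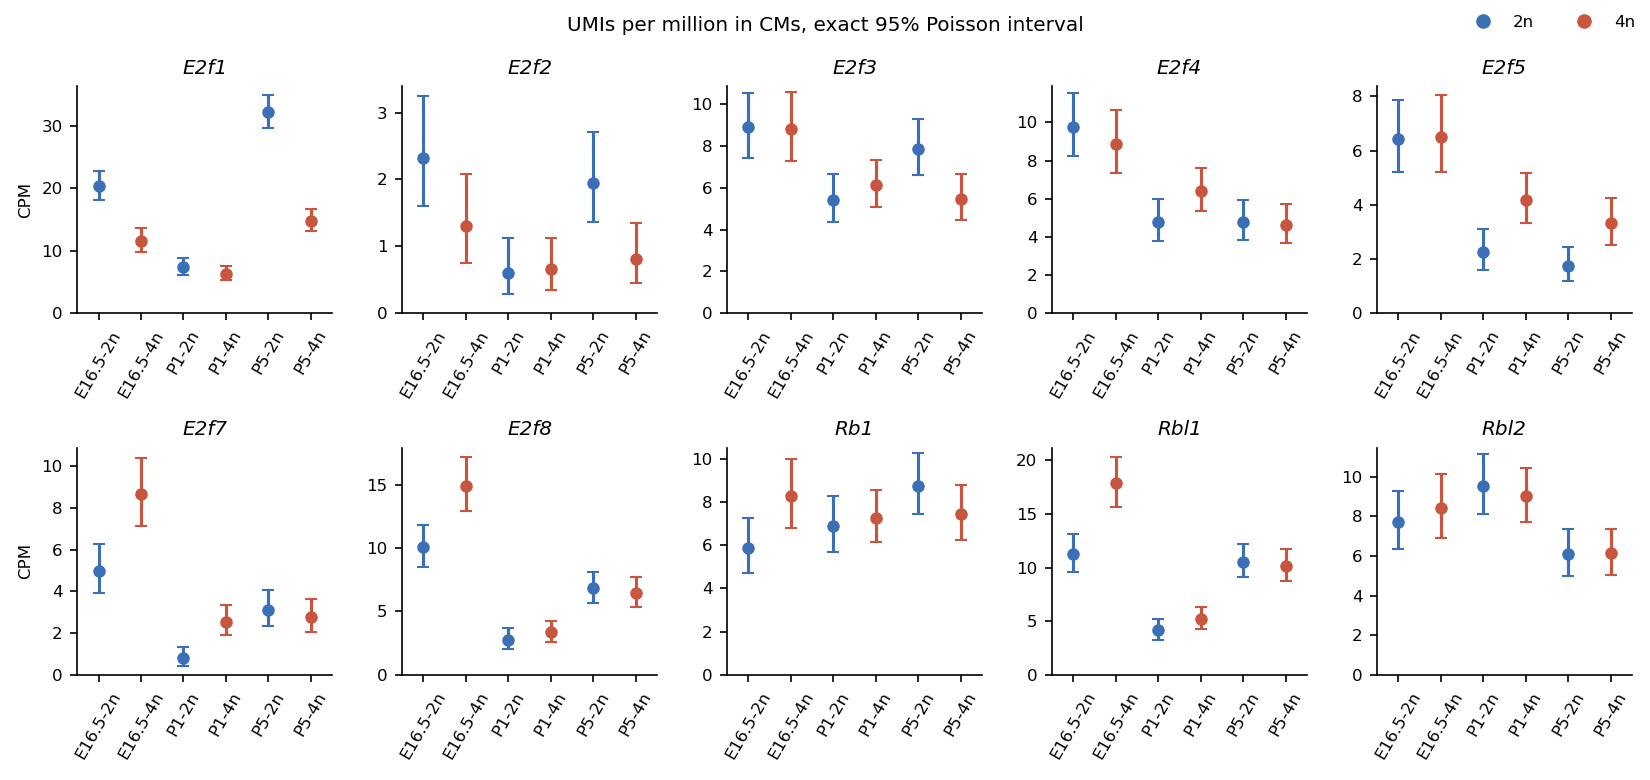
CPM (vertical axes, from 0, a scale of its own for each gene) of the 10 genes in the CMs of the 6 libraries, with 2n in blue and 4n in red and exact 95% Poisson intervals. E2f1, E2f2, E2f7, E2f8 and Rbl1 have their lowest points at P1, E2f1 peaks in P5-2n at 32.1, and Rb1 and Rbl2 stay between 5.88 and 9.55 in all 6 libraries.

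E2f2 (chr4:136172394-136196057, plus strand), a second activator, had few UMIs, namely 34, 17, 10, 13, 35 and 15 in library order. Its levels of 2.32, 1.30, 0.608, 0.661, 1.95 and 0.815 CPM had their high values in the 2n libraries of E16.5 and P5. P5-4n was lower than P5-2n by a log2 ratio of −1.26 (−2.24 to −0.35). E2f3 (chr13:29906575-29986063, minus strand), the remaining activator, varied less: 8.89, 8.80, 5.41, 6.15, 7.87 and 5.49 CPM. Its largest difference, P1-2n against E16.5-2n, was −0.72 (−1.12 to −0.32).

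The atypical repressors had their highest levels in E16.5-4n and not in P5-2n. E2f7 (ENSMUSG00000020185, chr10:110745439-110787384, plus strand), which shuts E2F targets late in S phase, stood at 4.99 CPM in diploid (73 UMIs) and 8.65 in tetraploid CMs (113) before birth, then at 0.791 (13) and 2.54 (50) on P1, and at 3.12 (56) and 2.77 (51) on P5. P1-2n was lowest and apart from the next library, P1-4n, since their intervals of 0.421 to 1.35 and 1.89 to 3.35 did not meet. The intervals of E16.5-2n and P5-2n overlapped, as did those of P5-2n, P5-4n and P1-4n. E2f8 (ENSMUSG00000046179, chr7:48866429-48881596, minus strand), its closest relative, stood at 10.1 CPM in diploid (147 UMIs) and 14.9 in tetraploid CMs (195) before birth, then at 2.74 (45) and 3.36 (66) on P1, and at 6.81 (122) and 6.41 (118) on P5. Its 3 ages were separate in both ploidies, in the order E16.5, P5 and P1, and within P1 and within P5 the intervals of 2n and 4n overlapped. From E16.5 to P1 the log2 ratios of E2f7 were −2.66 (−3.63 to −1.80) for diploid and −1.77 (−2.28 to −1.27) for tetraploid CMs, and those of E2f8 −1.88 (−2.39 to −1.39) and −2.15 (−2.58 to −1.74).

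E2f4 and E2f5, the repressors of resting cells, were highest at E16.5, and no interval of theirs lay above 0 from P1 to P5. E2f4 (chr8:105297663-105305370, plus strand) stood at 9.78, 8.88, 4.80, 6.41, 4.80 and 4.62 CPM in library order. P5-2n against P1-2n gave a log2 ratio of −0.00 (−0.46 to 0.46). From E16.5-4n to P1-4n the log2 ratio was −0.47 (−0.85 to −0.09), an interval that holds the median of all genes of that comparison (−0.29). E2f5 (chr3:14578641-14606309, plus strand) stood at 6.43, 6.50, 2.25, 4.17, 1.73 and 3.32 CPM. It was higher in 4n than in 2n CMs at P1 by 0.89 (0.31 to 1.49) and at P5 by 0.94 (0.29 to 1.61), but level at E16.5 with 0.02 (−0.42 to 0.46).

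Among the pocket proteins, Rbl1 moved with the atypical E2Fs, and Rb1 and Rbl2 did not. Rbl1 (ENSMUSG00000027641, chr2:157145893-157204534, minus strand), the p107 protein, which is made in cycling cells, stood at 11.3, 17.9, 4.14, 5.24, 10.5 and 10.2 CPM in library order, from 68 (P1-2n) to 234 (E16.5-4n) UMIs. The P1 libraries lay lowest, E16.5-4n lay highest, and the intervals of E16.5-2n, P5-2n and P5-4n overlapped. Rb1 (chr14:73183673-73325822, minus strand), the retinoblastoma protein, stood at 5.88, 8.26, 6.87, 7.27, 8.76 and 7.45 CPM in library order. In 1 of its 7 comparisons the interval lay off 0, E16.5-4n against E16.5-2n with 0.49 (0.07 to 0.92). Rbl2 (chr8:91070057-91123844, plus strand), the p130 protein of resting cells, stood between 6.08 (P5-2n) and 9.55 CPM (P1-2n). It was lower at P5 than at P1 by −0.65 (−1.02 to −0.29) in 2n and −0.55 (−0.91 to −0.20) in 4n CMs.

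Summed by role, the atypical E2Fs spanned the widest range as a fold, from 3.53 CPM in P1-2n to 23.6 in E16.5-4n. The activators spanned 13.2 (P1-4n) to 42.0 (P5-2n), the repressors 6.53 (P5-2n) to 16.2 (E16.5-2n), and the pocket proteins 20.6 (P1-2n) to 34.6 (E16.5-4n).

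Genes were set against a 2-fold difference in CPM in each comparison. From E16.5-2n to P1-2n, 7 of the 10 genes (E2f1, E2f2, E2f4, E2f5, E2f7, E2f8 and Rbl1) were at least 2-fold lower and 0 at least 2-fold higher, against 16.0% and 3.12% of the 11852 genes compared. From E16.5-4n to P1-4n, 3 (E2f7, E2f8 and Rbl1) were lower and 0 higher, against 13.6% and 4.57% of 12416. The median of all genes itself lay at −0.36 and −0.29 in these comparisons, and the medians of the 10 genes at −1.46 and −0.76. Set against the median of all genes, the intervals of 7 genes lay below it and those of 2 (Rb1 and Rbl2) above it in 2n. In 4n the intervals of 4 lay below and that of 1 (Rbl2) above it. The share of all genes with an interval off the median was not counted, so that these counts have no background.

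From P1-2n to P5-2n, 5 of the 10 genes (E2f1, E2f2, E2f7, E2f8 and Rbl1) were at least 2-fold higher and 0 lower, against 5.52% and 3.67% of 11775 genes. In 4n CMs from P1 to P5, 1 gene (E2f1) was higher and 0 lower, against 2.80% and 10.3% of 12268. With median-of-ratios scaling 3 were higher in 4n CMs (E2f8 and Rbl1 added). The medians of all genes were −0.08 and −0.19, and those of the 10 genes 0.93 and 0.08. E2f8 and Rbl1 lay just under the limit in 4n CMs, with 0.93 (0.49 to 1.39) and 0.96 (0.60 to 1.32). Comparisons that follow each other share the P1 library, so that a low value at P1 enters both.

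Between ploidies few genes differed by 2-fold. At E16.5, 0 of 10 were higher and 0 lower in 4n CMs, against 7.76% and 0.704% of 12077 genes, and 1 (E2f2) was lower without the 5% of CMs with the most UMIs. At P1, 1 (E2f7, 1.69, 0.78 to 2.69) was higher and 0 lower, against 10.2% and 0.172% of 12187. At P5, 0 were higher and 2 (E2f1 and E2f2) lower, against 2.50% and 1.22% of 11851. The lower count was 1 with each CM weighing the same, and the higher count was 1 (E2f5) with at least 2 UMIs of each CM marker or without CMs over 0.2% non-myocyte markers. The medians of all genes were within 0.08 of 0, and those of the 10 genes were 0.07, 0.24 and −0.13. At E16.5 the intervals of E2f7, E2f8, Rb1 and Rbl1 lay above 0 and that of E2f1 below it.

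Over the 6 libraries, E2f1, E2f7, E2f8 and Rbl1 fell from E16.5 to P1, E2f1, E2f8 and Rbl1 rose from P1 to P5, and no gene of the 10 passed the test between ploidies. The test was edgeR's quasi-likelihood test in an additive fit of age and ploidy, chosen after values had been seen, with Benjamini-Hochberg adjustment over 12115 genes, a threshold of 0.05 and TMM scaling, which moves log2 values away from those by total UMIs. It takes the ploidy difference as equal at each age and the age difference as equal in both ploidies. Departures from this are its only residual, with 2 residual degrees of freedom, to which edgeR adds variance shared over genes. The 2n and 4n libraries of an age came from the same litters, so that its age calls hold no spread between litters. In E16.5 to P1, 4 of the 10 were called lower and 1 higher, against 18.7% and 16.2% of all genes. E2f8 fell by 1.72 on the log2 scale (SE 0.206, adjusted p = 0.0013), Rbl1 by 1.32 (SE 0.198, adjusted p = 0.0032), E2f7 by 1.75 (SE 0.388, adjusted p = 0.015) and E2f1 by 0.87 (SE 0.210, adjusted p = 0.0197). Rbl2 was called higher (0.50, SE 0.150, adjusted p = 0.041), but not with total UMIs as the scale (0.20, adjusted p = 0.31). On that scale 7 of the 10 were called lower (E2f2, E2f4 and E2f5 added) and 0 higher, against 37.7% and 7.89% of all genes.

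In P1 to P5, 3 of the 10 were called higher and 0 lower, against 9.10% and 4.84% of all genes. E2f1 rose by 1.84 (SE 0.204, adjusted p = 0.0031), Rbl1 by 1.31 (SE 0.199, adjusted p = 0.0085) and E2f8 by 1.28 (SE 0.210, adjusted p = 0.011). With total UMIs as the scale the 3 were called again, and Rbl2 was called lower (−0.60, adjusted p = 0.042). On that scale 684 of the 12115 genes were called higher and 1336 lower. There 1 of 10 lower was thus near the share of all genes. Between 4n and 2n, 0 of the 10 were called higher and 0 lower, against 1.54% and 0.149% of all genes, and 1 (E2f1) had an unadjusted p under 0.05. E2f1 stood at −0.81 (SE 0.165, adjusted p = 0.074) and was lower in 4n at 3 of 3 ages. The ploidy calls turned on single ages. Without the P1 libraries E2f1 was called lower (−1.01, adjusted p = 0.020), against 0.0870% of 11492 genes, and 0 higher, against 1.58%. Without the P5 libraries E2f1 was called lower (−0.61, adjusted p = 0.015) and E2f7 higher (0.98, adjusted p = 0.0093). That fit called 4.48% of 11648 genes lower and 10.7% higher, so that 1 of 10 higher was near the share of all genes. Without the E16.5 libraries 0 were called, against 0.653% higher and 0.00870% lower of 11490 genes. Each of these fits left 1 residual degree of freedom, so that its p-values rest largely on the variance that edgeR shares over genes.

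**Figure D2:**
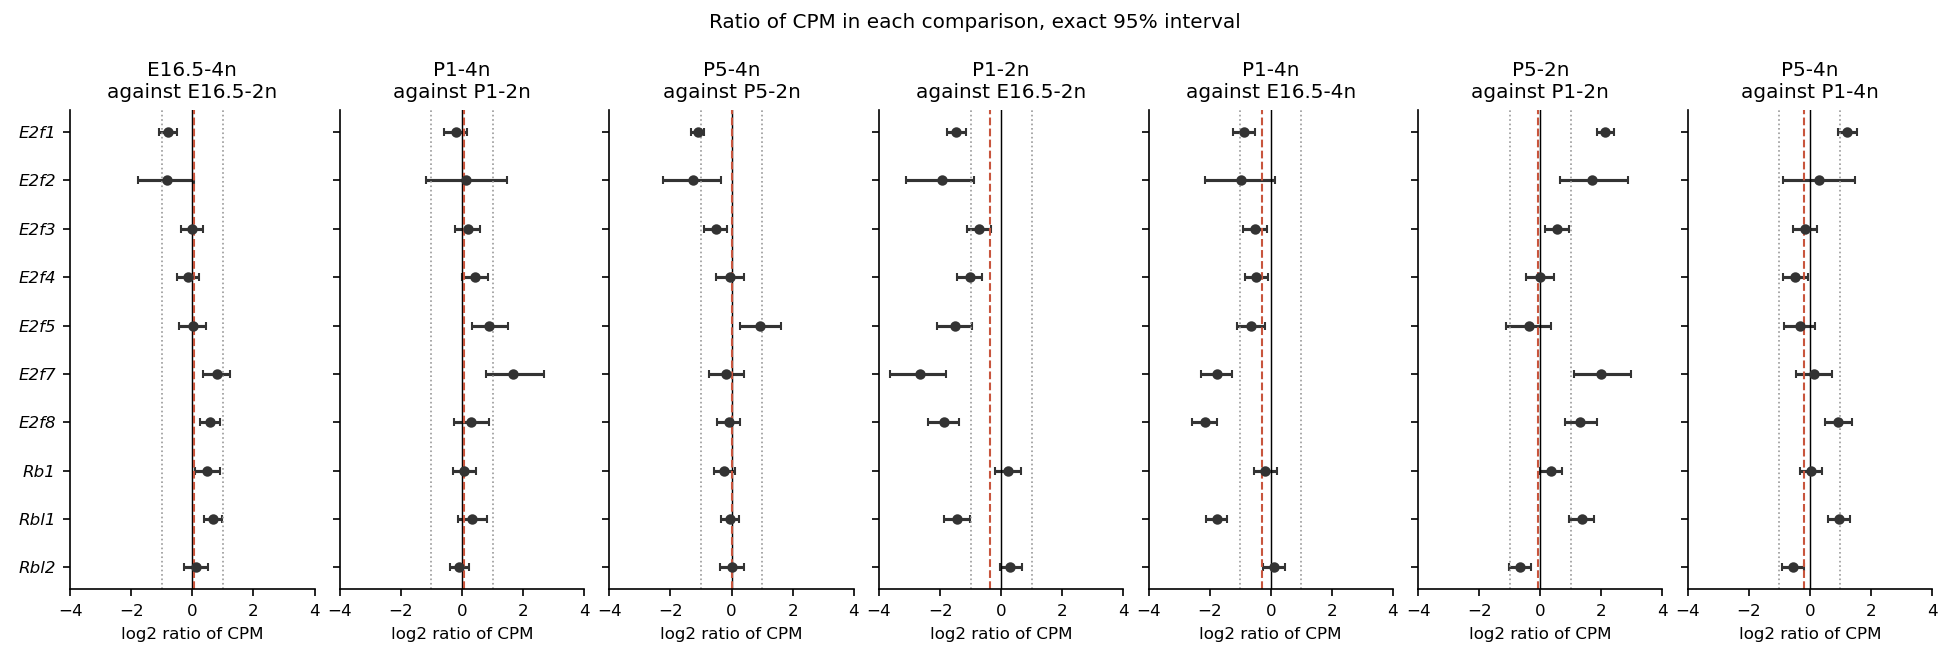
Log2 ratio of CPM (horizontal axes) of the 10 genes in the 7 comparisons, with exact 95% intervals. The black line marks 0, the dotted lines a 2-fold difference and the dashed red line the median of all genes compared. E2f1 lies left of 0 in 4n against 2n at E16.5 (−0.80) and P5 (−1.11). In P1-2n against E16.5-2n 8 of the 10 intervals lie left of 0. There the median of all genes is at −0.36, with 7 intervals left of it and 2 right of it. The share of all genes with intervals off 0 or off the median was not counted.

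Non-myocyte markers moved with ploidy. CMs with over 0.2% of their UMIs from the 17 markers made up 0.895%, 10.1%, 1.24%, 12.7%, 2.76% and 4.52% of the libraries, in library order. Without these CMs, E2f1 in P5-4n against P5-2n was −1.19 in place of −1.11, and none of the 70 ratios moved beyond its own interval. In E16.5-4n, E2f1 stood at 3.84 CPM (1.25 to 8.96) in these CMs and at 12.5 in the others. Its difference between ploidies at E16.5 was thus smaller without them. In P1-4n, E2f7 stood at 5.93 CPM (3.24 to 9.95, 14 UMIs) in these CMs and at 2.08 (36 UMIs) in the others.

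E2f1 and the atypical E2Fs differed between ploidies in opposite directions at E16.5. The share of E2f1 in the summed UMIs of E2f1, E2f7 and E2f8 gives the balance of these genes in 1 number. It needs no library total and was chosen after values had been seen. A lower share need not mean opposite directions. In 4n against 2n, E2f7 (−0.17) and E2f8 (−0.09) had intervals across 0 at P5, as E2f1 (−0.21) and E2f8 (0.29) had at P1. Before birth the share was 57.4% (53.1 to 61.8) in diploid and 33.0% (28.8 to 37.5) in tetraploid CMs. On P1 the values were 67.6% (60.2 to 74.4) and 51.9% (45.4 to 58.3), followed on P5 by 76.4% (73.2 to 79.4) and 61.8% (57.1 to 66.3). The 4n library was lower at each of the 3 ages, with intervals (exact binomial) that did not meet within an age. Within S phase it was 63.3% and 52.3%, 76.4% and 59.3%, and 76.4% and 71.8%, lower in 4n each time but with intervals that overlapped. Within G2/M it was lower in 4n before birth (39.6% and 24.8%) and on P5 (72.6% and 59.6%) but not on P1 (38.9% and 56.9%, from 18 and 72 UMIs). The share of Rbl1 in the UMIs of the 3 pocket proteins followed age instead, with 45.3%, 51.8%, 20.1%, 24.3%, 41.5% and 42.8% in library order. Its intervals overlapped between ploidies within each age.

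**Figure D3:**
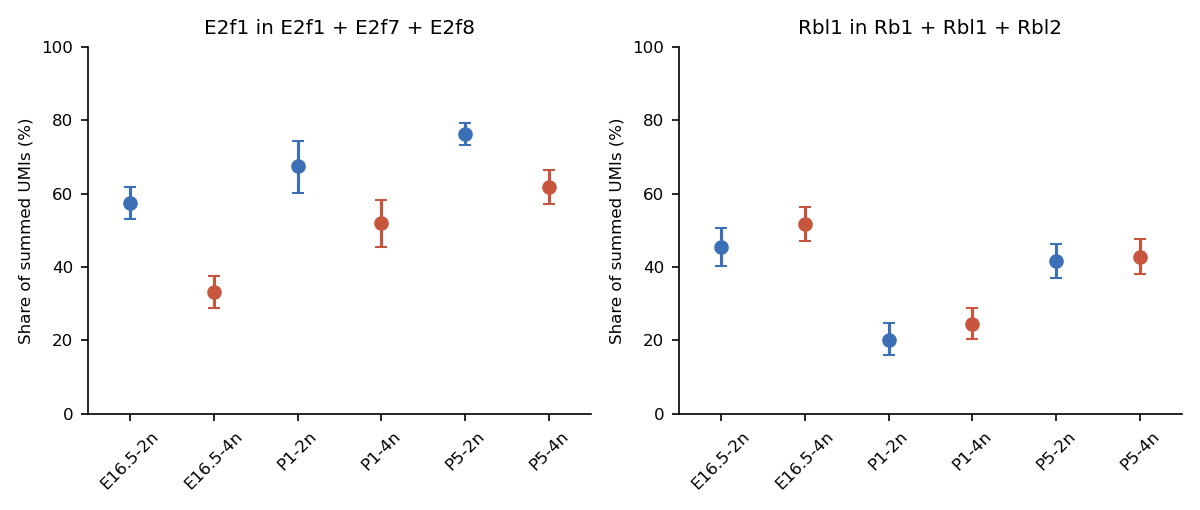
Share of summed UMIs (vertical axes, 0 to 100%) held by E2f1 among E2f1, E2f7 and E2f8 (left) and by Rbl1 among the 3 pocket proteins (right) in each library, 2n in blue and 4n in red, with exact 95% binomial intervals. E2f1 holds the smaller share in 4n at each age (33.0% against 57.4% at E16.5), and the share of Rbl1 dips at P1 to 20.1% and 24.3%.

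Cell cycle phases were then used to ask where in the cycle these transcripts lay. CMs were assigned to G1, S or G2/M from lists of S and G2/M genes, the 6 libraries scored together, with E2f8 taken out of the S list. No other of the 10 genes is in a list, but E2F targets such as Pcna and the Mcm genes are, so that the phases and E2F activity are not independent. Phases rest on transcripts alone. CMs sorted as 2n but scored as G2/M did not have the DNA content of that phase by the sort. Ratios between ploidies within G2/M may thus not compare the same phase. S phase held 30.4%, 18.3%, 16.4%, 11.4%, 40.02% and 9.77% of CMs in library order, and G2/M 14.5%, 51.3%, 2.40%, 8.81%, 4.67% and 36.6%. These shares depend on the scoring. With each library scored on its own, S phase held 25.5%, 18.0%, 29.4%, 25.0%, 29.9% and 14.1%. G2/M then held 16.0%, 35.4%, 20.8%, 16.6%, 14.4% and 27.9%.

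E2f1 was higher in S and G2/M than in G1 CMs in all 6 libraries. In S phase it stood at 47.1, 28.0, 30.1, 24.2, 58.1 and 37.0 CPM in library order, and in G1 at 2.94, 2.69, 2.26, 2.15, 6.09 and 2.54 CPM. This made S phase 9.54-fold (P5-2n) to 16.0-fold (E16.5-2n) higher than G1. G2/M was 4.02-fold (E16.5-4n) to 13.6-fold (P5-2n) higher than G1. With each library scored on its own, the log2 ratio of G2/M over G1 went from 2.01 to 0.75 in E16.5-4n and from 3.02 to 2.04 in P1-2n. In E16.5-2n, E16.5-4n and P5-4n, G2/M lay below S phase. P5-2n had the reverse order, 82.8 CPM in G2/M against 58.1 in S, but with each library scored on its own that log2 ratio went from 0.51 to −0.20.

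Part of the differences of E2f1 between libraries stayed within a phase as scored. Here and below, ratios between libraries within a phase come from the libraries scored together and were not computed with each scored on its own. Scored on its own, P1-2n had 29.4% of CMs in S phase in place of 16.4%, and P1-4n 25.0% in place of 11.4%. The steps to and from P1 thus hold for this scoring only. The lower level in 4n CMs was seen in S phase at E16.5 (−0.75, −1.17 to −0.35) and P5 (−0.65, −1.06 to −0.26). Among CMs scored as G2/M it was seen at E16.5 (−0.83, −1.40 to −0.25) and P5 (−1.61, −2.02 to −1.19). The 2n side of these G2/M ratios was 824 CMs at E16.5 and 206 at P5, scored so against their sorted DNA content. The 4n side of the S phase ratios was 895 CMs at E16.5 and 357 at P5, all sorted as 4n. In G1 the ratio of 4n to 2n was −0.13 (−1.37 to 1.01) at E16.5 and −1.26 at P5, with an interval below 0. P1-2n against E16.5-2n was −0.64 (−1.02 to −0.28) in S phase, against −1.46 over all CMs, and had intervals across 0 in G1 and G2/M. In 4n CMs the step from E16.5 to P1 was −0.32 (−1.38 to 0.86) in G1 and −0.21 (−0.76 to 0.34) in S phase. In G2/M it went the other way, with 0.80 (0.22 to 1.37), against −0.87 over all 4n CMs. P5-2n lay above P1-2n in G1 (1.43, 0.77 to 2.12), S (0.95, 0.61 to 1.30) and G2/M (2.18, 1.06 to 3.55). P5-4n against P1-4n was 0.24 (−0.57 to 1.04) in G1, 0.61 (0.05 to 1.18) in S and 0.52 (0.03 to 1.05) in G2/M.

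E2f8 and Rbl1 had the same preference. E2f8 was 5.05-fold to 17.1-fold higher in S than in G1 and 6.86-fold to 25.7-fold higher in G2/M than in G1 over the 6 libraries. For Rbl1 these ranges were 4.09-fold to 10.7-fold and 3.56-fold to 13.8-fold. E2f7 had at least 20 UMIs over S and G1 in 4 libraries, where S lay 3.50-fold to 16.7-fold above G1. With each library scored on its own, the lowest log2 ratio of S over G1 was 1.74 in place of 2.33 for E2f8 and 1.18 in place of 1.81 for E2f7. E2f2 had enough UMIs for S against G1 in 2 libraries, and S lay above G1 by 20.4-fold in E16.5-2n (27 and 2 UMIs) and 33.8-fold in P5-2n (28 and 1 UMIs), the log2 intervals being 2.36 to 7.47 and 2.48 to 10.4. Between E16.5-4n and E16.5-2n, E2f8 differed by −0.03 (−0.59 to 0.50) within S and 0.18 (−0.34 to 0.73) within G2/M, against 0.57 over all CMs. Rbl1 within S differed by −0.15 (−0.67 to 0.35), but within G2/M it was higher in 4n by 0.93 (0.35 to 1.56). From E16.5 to P1, E2f8 stayed lower within S phase in 2n (−1.51, −2.33 to −0.77) and 4n CMs (−1.07, −1.95 to −0.25).

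In E2f3, E2f4, E2f5, Rb1 and Rbl2 the interval of a phase ratio lay off 0 in fewer libraries. S lay above G1 with an interval off 0 in 3 of 6 libraries for E2f3 (1.29-fold to 2.42-fold over all 6), in 1 of 6 for E2f4 (P5-4n, 3.76-fold) and for Rb1 (E16.5-4n, 1.91-fold, or a log2 ratio of 0.93 that became 0.41 with each library scored on its own), and in 0 of 6 for E2f5 and Rbl2. G2/M lay above G1 in 2 of 5 libraries for E2f4 (1.83-fold in E16.5-2n and 2.16-fold in P5-4n), in 1 of 5 for E2f5 (P5-4n, 2.85-fold), and in 0 of 6 for E2f3, Rb1 and Rbl2. S lay below G1 in 1 of 6 libraries for E2f5 (E16.5-2n, 0.565-fold) and for Rbl2 (P1-2n, 0.565-fold, or a log2 ratio of −0.82 that became −0.09 with each library scored on its own). Rbl2 in G1 stood at 10.2 CPM in P1-2n against 6.67 in E16.5-2n, a log2 ratio of 0.61 (0.13 to 1.11). The same step in 4n CMs was 0.07 (−0.49 to 0.66). E2f5 in G1 was lower in P1-2n than in E16.5-2n by −1.75 (−2.43 to −1.10). Its low level in P1-2n was thus found within the most frequent phase. In 4n CMs the step of E2f5 in G1 was −0.37 (−1.11 to 0.43).

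**Figure D4:**
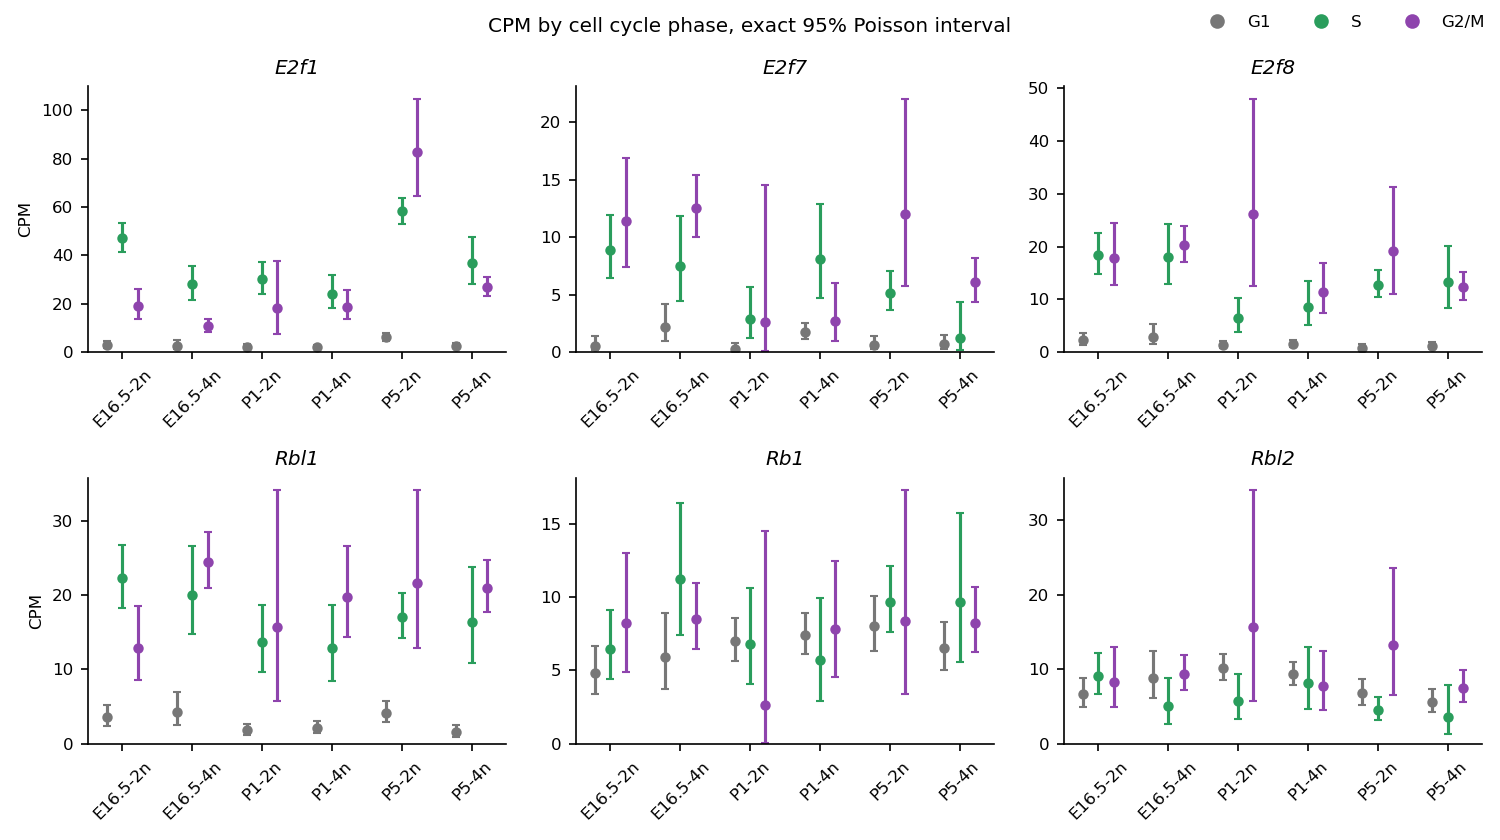
CPM (vertical axes, from 0, a scale of its own for each gene) of E2f1, E2f7, E2f8, Rbl1, Rb1 and Rbl2 in CMs assigned to G1 (grey), S (green) and G2/M (purple) in each library, with exact 95% Poisson intervals. The G1 points of E2f1 lie between 2.15 and 6.09 under all S and G2/M points of that gene, whereas the 3 phases of Rb1 and Rbl2 mix. Wide intervals in P1-2n G2/M come from 176 CMs.

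Most CMs had no UMI of any of these genes. The highest share was that of E2f1 in P5-2n, 10.6% of CMs, and over all libraries E2f1 was seen in 4.58%, 2.85%, 1.49%, 2.40%, 10.6% and 6.43% of CMs in library order. Thinned to 1000 UMIs per CM, which left out 163, 23, 700, 0, 20 and 0 shallower CMs, these shares became 2.08%, 1.11%, 0.663%, 0.506%, 2.89% and 1.56%. The order of the P1 libraries turned over with depth, whose medians were 1831 (2n) and 3187 (4n) UMIs. No cell type in these data should lack E2f1, and G1 CMs served as the low reference. In P5-2n 2.21% of G1 CMs (median 3592 UMIs) and 20.5% of S phase CMs (median 4049 UMIs) had a UMI, or 0.411% and 5.74% after thinning.

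Of the genes that work with E2Fs, 9 of 10 could be compared (E2f6, the dimer partner Tfdp2, the MuvB subunits Lin9, Lin37, Lin52, Lin54 and Rbbp4, and Mybl2 and Foxm1), and Tfdp1 had 15 UMIs in all libraries. Relative to E16.5, 2 of these 9 were at least 2-fold lower on P1 in diploid CMs, near the 16.0% of all genes. In tetraploid CMs 4 were lower, against 13.6% of all genes. In both ploidies 0 were higher, against 3.12% and 4.57%. Foxm1, which drives mitotic genes, stood at 4.79, 20.1, 1.34, 4.98, 5.63 and 15.5 CPM in library order, and was at least 2-fold higher in 4n at each age. Rbbp4, the gene of most UMIs in the list, stood between 66.1 and 136 CPM.

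The list of cyclins, kinases and inhibitors that act on the pocket proteins held 12 genes. On P1, 7 were at least 2-fold lower than before birth in diploid and 6 in tetraploid CMs, against 16.0% and 13.6% of all genes. In both ploidies 0 were higher. Cdk4, Ccne1, Ccne2 and Cdkn1c were lower in both, Ccnd3, Cdk2 and Cdkn1a in diploid CMs, and Cdkn1b and Cdkn2c in tetraploid CMs. Inhibitors are thus counted together with cyclins and kinases. The cyclin E genes were also lowest at P1: Ccne2 stood at 22.6, 12.5, 4.86, 4.58, 25.1 and 7.61 CPM, and Ccne1 at 24.6, 22.4, 5.96, 5.39, 17.5 and 11.8 CPM. The cyclin D gene Ccnd2, of most UMIs in the list, stayed between 153 and 200 CPM in all libraries. The inhibitor gene Cdkn1c went from 103 and 175 CPM at E16.5 to 4.30 and 5.71 at P5. Each inhibitor gene of the list (Cdkn1a, Cdkn1b, Cdkn1c and Cdkn2c) was higher in 4n at each age. Only the interval of Cdkn1c at P5 (−0.03 to 0.85) reached below 0.

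Of 20 known G1/S targets of E2F, 20 were at least 2-fold lower on P1 than before birth in diploid CMs and 19 in tetraploid CMs. From P1 to P5, 17 were at least 2-fold higher in 2n and 4 in 4n CMs. At P5, 8 were at least 2-fold lower in 4n than in 2n CMs and 1, Ccna2, higher. Cdt1, which licenses replication origins, stood at 44.1, 20.7, 9.79, 7.32, 40.6 and 9.02 CPM, and Rrm2, the ribonucleotide reductase subunit of most UMIs in the list, at 182, 363, 36.4, 58.9, 117 and 208 CPM. Of 12 G2/M targets of MuvB with Mybl2 and Foxm1, 12 were at least 2-fold higher in 4n at each age, and 12 were lower at P1 than at E16.5 in both ploidies. From P1 to P5, 10 were higher in 2n and 12 in 4n CMs. The share of all genes past the same limit in each comparison is that given above.

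Levels over the 6 libraries were compared by Pearson's r of log2(CPM + 1), as a description of 6 points that share depth, age and ploidy. E2f8 and Rbl1 were the closest pair of the 10 genes (0.979), followed by E2f7 with E2f8 (0.942), E2f7 with Rbl1 (0.917) and E2f4 with E2f5 (0.915). E2f1 and Rbl2 were the most opposed (−0.823). Pearson's r takes no account of the size of a change, so that nearly flat genes can rank high. Of the genes named next, Atrn spanned 7.07 to 8.76 CPM, against 6.36 to 32.1 for E2f1. Among 11412 genes with at least 100 UMIs, the 3 most like E2f1 were Cltb, Dtnbp1 and Atrn (0.976 to 0.982), those most like E2f2 were Cdt1, Ccne2 and Alkbh2 (0.971 to 0.981), and those most like E2f3 were Il2, Ica1 and Klhl2 (0.979 to 0.998). E2f4 was nearest to Taf1a, Mfsd10 and Pemt (0.997 to 1.000), and E2f5 to Arf5, Scai and Socs7 (0.993 to 0.995). E2f7 was nearest to Tbc1d10b, Pdik1l and Pvrl3 (0.991 to 0.993), and E2f8 to Mettl16, BC055324 and Cdc7 (0.997 to 0.998). The list for Rb1 was Ncald, Tnik and Auts2 (0.945 to 0.993), and for Rbl2 Ppip5k2, Atraid and Tmem219 (0.989 to 0.998). Cdc7, a kinase that fires replication origins, stood at 13.1, 20.6, 3.04, 4.42, 9.32 and 8.21 CPM in library order. It was taken from the genes most correlated with E2f8, so that a like ranking of libraries follows from that choice.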

How the data were processed

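The authors made 1 droplet-based library per condition from pooled sorts. Reads were aligned to GRCm38 by STAR within Cell Ranger, and the deposited tables hold UMI counts of each gene in each called cell, neither scaled nor filtered by gene. Per the labels, Seurat 2.3.0 was used downstream. The Cell Ranger version is not given in the sources used here. A deposited list of gene symbols and a table of the authors' own comparison (fold changes and p-values) were not used.

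Here, counts were summed over CMs (at least 1 UMI of each of Tnni3, Tnnt2, Tnnc1 and Actc1) and divided by all UMIs of these CMs. Ratios have exact 95% intervals from the binomial split of the UMIs, levels exact Poisson and shares exact Clopper-Pearson intervals (Python 3.11.15, scipy 1.17.1). These cover counting error only. Genes with at least 20 UMIs in both libraries together were compared, and for genes at 0 in 1 library a floor of 3 UMIs was used in the background. The code of the ratios and of the fit was run on simulated counts with known folds. These counts had Poisson error for the ratios and 1 fixed dispersion for the fit. They held no litters and no departures from additivity, so that they cannot show how the intervals or p-values hold for this design. UMI counts summed by library were also fitted as age plus ploidy with edgeR 4.0.16 (glmQLFit and glmQLFTest, genes with at least 60 UMIs over the 6 libraries). The SEs given were derived from that test, as the absolute log2 value over the square root of its F, and are no separate estimate. The libraries of an age held cells of the same litters, so that age and litter cannot be told apart. With 1 library per age and ploidy, the residual of the fit is the departure from additivity. The p-values do not measure the spread between litters. Phases came from CellCycleScoring (Seurat 5.3.0, R 4.3.3) after log-normalization to 10000 UMIs, with genes seen in at least 3 cells and 42 S and 54 G2/M genes. No doublet caller was run. The 5% of CMs with the most UMIs were left out as an alternative.

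Gene positions came from a GENCODE annotation of GRCm38 and promoters from RefSeq. The 10 genes, the lists and the comparisons were chosen with earlier results of these data known. Named genes are the 10, genes of the 4 lists (as examples those of most UMIs) and the 3 genes most correlated with each of the 10. Foxm1, Mybl2, Tfdp1, the cyclin E genes, Ccnd1, Ccnd3, Cdk2, Cdk4, Cdk6, the inhibitor genes, Cdt1, Ccna2 and Cdc7 were singled out after their values were seen. The ratios within phases and the shares among related genes were added after values had been seen. The genes nearest to Rbl1 over the libraries are not reported here.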

Additional observations from a re-analysis of the deposited data

Results flagged for a closer look

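In cells outside the main measurement, 2 of the 10 genes had more than 3 UMIs in a library, and the other 8 had 0 to 3. In E16.5-2n, the 83 cells that lacked a UMI of at least 1 of the 4 CM markers held 4 UMIs of E2f5 among 90033 UMIs. In P5-2n, 49 such cells held 5 UMIs of E2f1 among 67981 UMIs. Both are above the limit of 3 UMIs that a count of 0 allows. A count of 0 was not to be presumed, since these cells failed only the filter on 4 markers. CMs of the same libraries held E2f5 at 6.43 CPM and E2f1 at 32.1 CPM. Per UMI, both counts lay above the level in CMs of the same library. They rest on 4 and 5 UMIs, and the difference was not tested. There were no cells of an untreated control type to set them against.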

How the results depend on the processing

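The labels number no replicates, so that the 2n and 4n libraries were paired by age, as blocks of the additive fit. Of its counts, those higher on P1 than before birth went from 1 to 0 with total UMIs as the scale and those lower from 4 to 7, and those lower on P5 than on P1 from 0 to 1. Between ploidies the lower count went from 0 to 1 without the P1 libraries and to 1 without the P5 libraries, where the higher count went from 0 to 1. The shares or counts of all genes called in these fits are given with the fits above. No ratio whose interval lay off 0 turned its direction under the alternatives on scaling and cells. Of the counts of genes past 2-fold, those higher in P5-4n than in P1-4n went from 1 to 3 with median-of-ratios scaling (E2f8 and Rbl1 added), to 2 without the 50 genes of most UMIs in the total and to 2 with each CM weighing the same. Those higher in P5-4n than in P5-2n went from 0 to 1 (E2f5) with at least 2 UMIs of each CM marker and to 1 without CMs over 0.2% non-myocyte markers. Those lower in P5-4n than in P5-2n went from 2 to 1 with each CM weighing the same, and those lower in E16.5-4n than in E16.5-2n from 0 to 1 (E2f2) without the 5% of CMs with the most UMIs. In each case a gene near the 2-fold limit crossed it. All other counts stayed within 1.5 times under these alternatives, without the CM filter and with a minimum of 50 UMIs or none. With median-of-ratios scaling 1 of the 70 ratios moved beyond its interval, E2f1 in P1-2n against E16.5-2n (−1.12 in place of −1.46), and the median of all genes went from −0.36 to −0.01. Under the other alternatives on scaling and cells 0 of 70 did. Scored in each library on its own, 21 of 180 levels by phase moved beyond their intervals, and the log2 ratio of E2f1 in G2/M over G1 in E16.5-4n went from 2.01 to 0.75. Thinning to 1000 UMIs lowered 60 of 60 shares of CMs beyond their intervals, and thinning to 2000 UMIs moved 45 of 60. E2f2, with 124 UMIs in all, and G2/M of P1-2n are limited most by counting error.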
